A study of Mus musculus with 20 samples.

Results

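Livers of mice that received both corticosterone (CORT) and the antibody against acyl-CoA-binding protein (αACBP) were compared with livers of mice that received neither. These were the 5 livers of the αACBP + CORT group (columns labelled DBI_CORT) and the 5 of the Isotype + Vehicle group (IgG_Veh), 10 of the 20 livers of the series, and every gene of the count table entered. All mice were wild-type C57BL/6 females, 8 weeks old, and liver was taken at the end of week 5 of treatment. The αACBP + CORT mice had CORT, the main glucocorticoid of the mouse, in their drinking water and intraperitoneal injections of a monoclonal antibody that neutralizes ACBP. The Isotype + Vehicle mice had the vehicle of CORT and injections of an IgG2a isotype control antibody, so that both groups were injected and neither carried a genetic change. The other groups, Isotype + CORT and αACBP + Vehicle, had 5 livers each and are given for the same genes. Bulk liver RNA was sequenced, so that fewer cells of a type and less RNA per cell cannot be told apart. The labels give no batch, mouse or cage.

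Glucocorticoids bind the glucocorticoid receptor, which switches on genes of glucose production, lipid handling and the acute-phase response in hepatocytes. Lipid synthesis in hepatocytes is driven by the sterol regulatory element-binding proteins: SREBP2 acts on cholesterol synthesis and SREBP1c on fatty acid synthesis, both together with the CCAAT-binding factor NF-Y at many promoters. ACBP, encoded by Dbi, carries acyl-CoA esters inside cells and is also released as a factor that promotes appetite and lipid storage.

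The counts on genes added up to 14934926 to 20299999 in the control livers (median 16781967) and to 15570171 to 17960984 in the αACBP + CORT livers (median 16971918), and these totals did not differ beyond their spread (two-sided exact permutation test, p = 0.738; the smallest that 5 against 5 livers allow is 0.00794). A count of 3 corresponded to 0.152 to 0.202 CPM (counts scaled to a common library size after TMM normalization), which is the lowest level these depths could show and covers counting error only. The 15 hepatocyte identity genes had a median log2 fold change of 0.07, and summed to 94300 to 152600 CPM in controls and 104400 to 143700 CPM with both treatments. Of the 14 pancreatic acinar genes 2 passed the filter on low counts (median log2 fold change -3.22, with the list summing to 12.3 to 24.9 CPM in controls and 7.46 to 25.1 CPM with both treatments), and of the 12 skeletal muscle genes 2. Of 5 adipocyte genes that passed, 1 was higher and 2 were lower at an unadjusted p of 0.05. Adipocyte genes summed to 1431 to 2299 CPM in controls and 845.8 to 1740 CPM with both treatments, most of it Car3, which hepatocytes also express. One αACBP + Vehicle liver, replicate 5, stood apart from the other libraries (TMM factor 1.292, and 14.05% of its counts on the 20 most abundant genes against 20.03% to 27.71% in the other 19). It is not part of the comparison, but it entered the estimate of the spread.

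Of 48440 genes, 16071 passed edgeR's filter on low counts and were tested in 1 model of the 4 groups. A gene was called where p, adjusted over all genes by Benjamini and Hochberg, was at most 0.05 and the log2 fold change was 1 or more in size. Between both treatments and the controls 11 genes (0.0684%) were called, 6 higher (0.0373%) and 5 lower (0.0311%). Among the 5 lower genes were Sc5d, Acss2, Acly and the long noncoding RNA 1810008I18Rik, of which Sc5d, Acss2 and Acly make sterols or the acetyl-CoA from which lipids are built. The 6 higher genes were Saa1 and Lcn2, which encode secreted acute-phase proteins, Slc6a9, Extl1, Inhbe and the long noncoding RNA C730036E19Rik. The median log2 fold change over all genes was 0.00, with 8088 genes higher and 7983 lower. An unadjusted p of 0.05 or less was reached by 1220 genes (7.59%), and with the fold limit by 223 (1.39%), 99 higher (0.616%) and 124 lower (0.772%). In 532 genes (3.31%) no liver of one group reached into the range of the other.

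**Figure D1:**
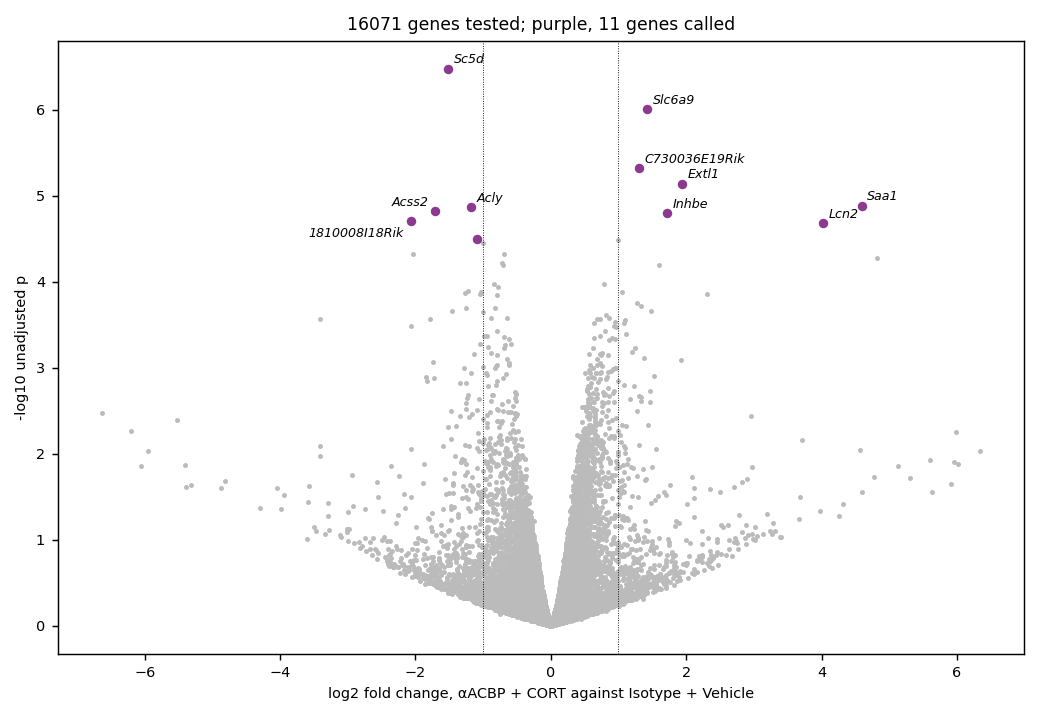
Each point is 1 of 16071 genes, with the log2 fold change of αACBP + CORT against Isotype + Vehicle on the x axis and minus log10 of the unadjusted p from edgeR's quasi-likelihood test on the y axis; dotted lines mark a log2 fold change of -1 and 1. The 11 called genes are purple, and Saa1 and Lcn2 lie farthest to the right among them.

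The number of calls differed between fits and between tests, and the cause was not tested. The model of 4 groups shared 1 estimate of the spread between livers, with a biological coefficient of variation of 0.481. A fit of the 10 livers alone tested 14759 genes and called 62 of them (0.42%), 27 higher (0.183%) and 35 lower (0.237%), among them all 11. All 11 were also called by DESeq2's Wald test, and 10 of them by limma's voom with quality weights. Below, a gene called in the fit of the 10 livers and not in the model of 4 groups is named as such. The 5 αACBP + CORT livers were not alike: replicate 5 lay nearest to the control mean for 8 of the 11 called genes and replicate 3 for the other 3. Without replicate 5 of this group the model called 23 genes, 10 of the 11 among them, and without any other of the 10 livers it called 1 to 4. Sc5d was called in each of these 9 fits and Slc6a9 in 7 of the 9, while Acss2, Acly, 1810008I18Rik, Saa1, Lcn2 and Inhbe lost the call in all 9.

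**Figure D2:**
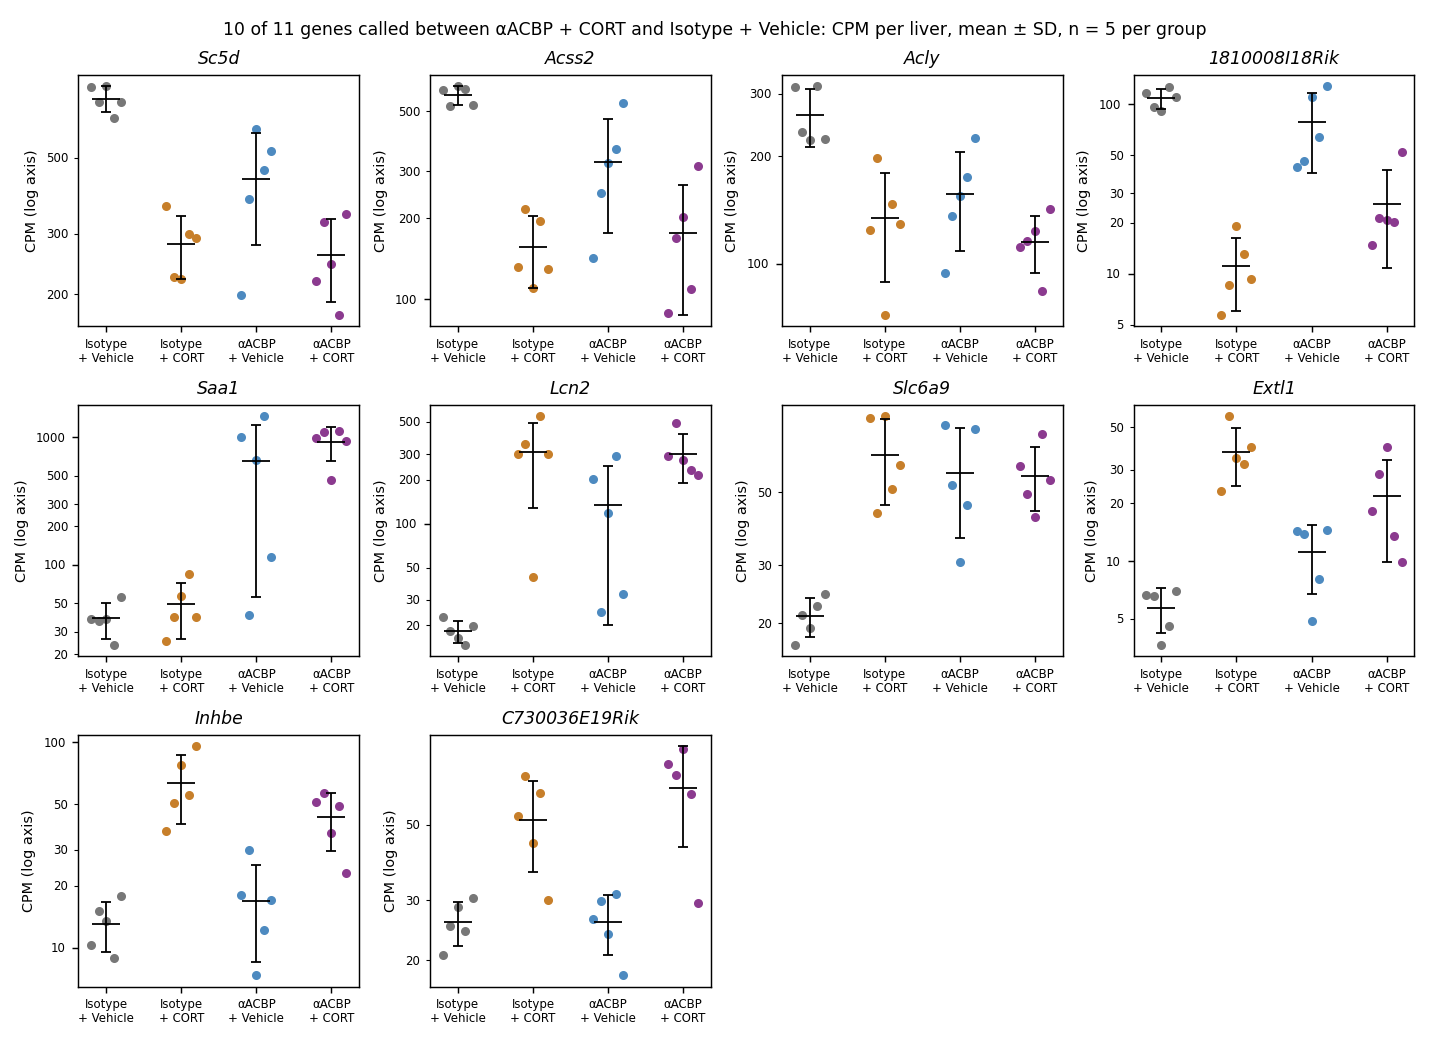
CPM on a log axis for 10 of the 11 called genes, in the 5 livers of each of the 4 groups; points are livers, the horizontal dash is the mean and the bars are the SD. For each gene other than C730036E19Rik, the purple αACBP + CORT livers lie wholly above or wholly below the grey Isotype + Vehicle livers, and for C730036E19Rik the lowest of them, at 29.4 CPM, lies below the highest control liver, at 30.6 CPM.

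The genes of cholesterol synthesis lay lower with both treatments, led by Sc5d. This list and those below were written with earlier results of these data known, so their shares are not independent of the data. All 25 genes of a list of cholesterol synthesis and SREBP2 targets passed the filter, and all 25 had a negative log2 fold change, with a median of -0.87 against 0.00 over all genes. The median was -0.47 for Isotype + CORT and -0.41 for αACBP + Vehicle, each against the same controls. Of the 25, 1 was called lower (0.0311% of all genes were) and 15 were lower at an unadjusted p of at most 0.05. Of all genes 7.59% reached that p in either direction, a share that also stands beside the lists below. In 9 of the 25 genes the livers of both groups did not overlap (1.46% of all genes lay wholly lower). Their summed level was 4757 to 6084 CPM in the control livers and 1896 to 3771 CPM with both treatments. In the fit of the 10 livers 5 of them were called lower (0.237% of all genes there), among them Sc5d, Insig1, Lss and Pmvk.

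Sc5d (ENSMUSG00000032018.13, chr9:42162891-42175605, minus strand in GRCm39) encodes the sterol C5-desaturase, which acts late in the path from lanosterol to cholesterol. The Sc5d level was 806, 728, 810.2, 652 and 727 CPM in the 5 control livers and 218, 324, 245, 174 and 343 CPM in the 5 αACBP + CORT livers. The highest treated liver stood far below the lowest control liver. The mean fell from 745 ± 65.6 CPM (SD, n = 5) to 261 ± 71.2 CPM (SD, n = 5), a log2 fold change of -1.51 ± 0.23 (SE; edgeR's quasi-likelihood test, adjusted p = 0.00534). In the model of 4 groups Sc5d had the smallest p of all genes, and it was called with any 1 of the 10 livers left out. In the fit of the 10 livers its adjusted p was 0.000367 (edgeR's quasi-likelihood test), and Lcn2, Saa1 and Saa2 had smaller ones.

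The other enzymes of the list did not pass the adjustment in the model of 4 groups. Insig1, which holds the SREBPs back in the endoplasmic reticulum and is itself an SREBP target, was at 583, 573, 506, 585 and 626 CPM in controls and 237, 300.5, 319, 208 and 241 CPM with both treatments, and its groups did not overlap (log2 fold change -1.14, edgeR's quasi-likelihood test, adjusted p = 0.144, and 0.000824 in the fit of the 10 livers). Lss, which closes the sterol rings, was at 94.4, 109.5, 150.4, 108 and 124 CPM and at 38.2, 54.3, 41.1, 27.6 and 70.95 CPM, again without overlap (log2 fold change -1.34, adjusted p = 0.189, and 0.00497 with the 10 livers). Pmvk, a kinase of the mevalonate pathway, had a log2 fold change of -1.17 (adjusted p = 0.467, and 0.0209 with the 10 livers). Differences close to 0 were those of Ebp (-0.19), a sterol isomerase gene, and of Srebf2 (-0.19), which encodes SREBP2. Pmvk, Ebp and Srebf2 were named after their values had been seen.

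The genes of fatty acid and triglyceride synthesis also lay mostly lower. Of 32 genes tested, 24 had a negative and 8 a positive log2 fold change, with a median of -0.59. Of them 2 were called, both lower (Acss2 and Acly), against 0.0311% of all genes called lower. At an unadjusted p of at most 0.05, 17 were lower and 1 was higher, against 7.59% of all genes in either direction. Of the list 11 lay wholly below the controls (1.46% of all genes did). The summed level was 11990 to 15320 CPM in controls and 7304 to 10530 CPM with both treatments. Against the same controls, the median log2 fold change of this list was -0.58 for Isotype + CORT and -0.33 for αACBP + Vehicle. In the fit of the 10 livers 3 of 31 were called, Acss2, Acly and Scd1, all lower (0.237% of all genes there were called lower). Adipocytes also make fatty acids: their defining marker Adipoq was between 0 and 1.22 CPM in controls and between 0 and 0.632 CPM with both treatments, Cfd between 0 and 4.58 CPM and between 0 and 1.03 CPM, and Lep was at 0 in all 10 livers. Their part in the result was not tested.

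Acss2 (ENSMUSG00000027605.18, chr2:155355679-155428016, plus strand) encodes the enzyme that makes acetyl-CoA from acetate. The Acss2 level was 601, 523, 622, 604 and 529 CPM in the 5 control livers and 88.7, 169, 202, 109 and 313 CPM in the 5 αACBP + CORT livers. Replicate 5 was the highest of the treated livers and still below all controls. The mean fell from 576 ± 46.4 CPM (SD, n = 5) to 176 ± 88.9 CPM (SD, n = 5), a log2 fold change of -1.71 ± 0.31 (SE; edgeR's quasi-likelihood test, adjusted p = 0.0320). Acss2 lost the call in 9 of the 10 fits that each left out 1 of these livers (adjusted p 0.00118 to 0.107). Acss2os, a noncoding RNA on the other strand, fell in the fit of the 10 livers (log2 fold change -2.07, adjusted p = 0.000367). Exons of Acss2 lie opposite 35.7% of the exon bases of Acss2os, so that pairs there could have been counted on both genes, since the strand setting is not given.

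Acly (ENSMUSG00000020917.17, chr11:100367165-100440756, minus strand) encodes ATP citrate lyase, which makes acetyl-CoA from citrate. The Acly level was 314, 234, 222, 315 and 223 CPM in the 5 control livers and 111, 116, 123, 84.1 and 142 CPM in the 5 αACBP + CORT livers. The groups did not overlap, and replicate 5 was again the treated liver nearest to the controls. The difference was a log2 fold change of -1.18 ± 0.23 (SE; edgeR's quasi-likelihood test, adjusted p = 0.0320). Acly lost the call in 9 of the 10 fits that each left out 1 of these livers (adjusted p 0.0177 to 0.123). Scd1, the desaturase that makes oleate, had means of 5532 and 2087 CPM (log2 fold change -1.41, adjusted p = 0.301, and 0.00128 with the 10 livers). Pnpla3, which encodes a lipid droplet protein under SREBP1c, had the lowest log2 fold change of the list but scattered widely: it was at 79.2, 29.2, 11.1, 76.8 and 24.8 CPM in controls and at 3.29, 2.38, 7.69, 6.21 and 1.08 CPM with both treatments. The groups did not overlap (log2 fold change -3.42, 95% interval -4.99 to -1.84, adjusted p = 0.0990). The fatty acid elongase gene Elovl5 had a log2 fold change of -0.80 and the acyl-CoA synthetase gene Acsl5 of -0.78, both with an adjusted p of 0.0782 (0.00851 and 0.0216 with the 10 livers, under the fold limit); exons of Zdhhc6 on the other strand cover 37.3% of those of Acsl5. Dgat1, which makes triglycerides, was the 1 member that was higher at an unadjusted p of 0.05 (0.52).

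1810008I18Rik (ENSMUSG00000100094.1, chr7:65452681-65465112, plus strand), a long noncoding RNA, fell most of the called genes. The 1810008I18Rik level was 117, 96.9, 92.01, 127 and 111 CPM in the 5 control livers and 14.7, 21.4, 20.7, 20.3 and 52.6 CPM in the 5 αACBP + CORT livers. Replicate 5 of the treated group was well above the other 4, and below all controls. The difference was a log2 fold change of -2.07 ± 0.37 (SE; edgeR's quasi-likelihood test, adjusted p = 0.0337). 1810008I18Rik lost the call in 9 of the 10 fits that each left out 1 of these livers (adjusted p 0.000592 to 0.134). Its log2 fold change against the same controls was -3.28 for Isotype + CORT and -0.47 for αACBP + Vehicle.

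Most promoters found for the lipid synthesis genes hold a short motif. The choice of the lists was not independent of it, since SREBPs act with NF-Y at many promoters. All tested members with a promoter were searched whatever their change. The lists were written with earlier results of these data known, so these motif shares are not independent of the data either. RefSeq promoters (250 bases before to 50 after the start, GRCm38.p6) were found for 17 of the 25 cholesterol genes and 26 of the 32 fatty acid genes, and were searched on both strands. The CCAAT box (CCAAT, or ATTGG on the other strand), the site of NF-Y, was present in 16 of 17 cholesterol promoters (94.1%) and in 19 of 26 fatty acid promoters (73.1%), against 41.1% of all 27025 promoters and 42.2% of those of tested genes. The E-box CACGTG was present in 4 of 17 (23.5%) and 4 of 26 (15.4%), against 8.09% of all promoters and 11.3% of those of tested genes. A strict sterol response element (TCACNCCAC) was found in 1 of 17 and 2 of 26, against 1.44% of all and 1.47% of those of tested genes. A match is a stretch of letters, not a measured site. The promoters of the 3 called genes of lipid synthesis are printed 5′ to 3′ with the CCAAT box in capitals, which starts 24 bases before the RefSeq start in Sc5d, 73 before in Acss2 and at base 38 after the start in Acly.
Sc5d, chr9:42264251-42264550, minus strand: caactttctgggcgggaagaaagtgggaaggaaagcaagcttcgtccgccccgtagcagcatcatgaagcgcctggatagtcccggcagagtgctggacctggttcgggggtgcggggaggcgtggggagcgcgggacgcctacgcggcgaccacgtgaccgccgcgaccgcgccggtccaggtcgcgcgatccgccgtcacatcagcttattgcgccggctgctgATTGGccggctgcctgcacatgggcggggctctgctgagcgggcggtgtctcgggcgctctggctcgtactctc
Acss2, chr2:155517793-155518092, plus strand: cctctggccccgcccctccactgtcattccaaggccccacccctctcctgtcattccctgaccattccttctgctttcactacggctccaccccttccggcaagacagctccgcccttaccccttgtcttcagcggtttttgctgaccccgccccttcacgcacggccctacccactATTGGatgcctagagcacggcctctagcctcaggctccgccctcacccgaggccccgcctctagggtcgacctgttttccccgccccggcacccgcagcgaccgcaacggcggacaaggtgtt
Acly, chr11:100527951-100528250, minus strand: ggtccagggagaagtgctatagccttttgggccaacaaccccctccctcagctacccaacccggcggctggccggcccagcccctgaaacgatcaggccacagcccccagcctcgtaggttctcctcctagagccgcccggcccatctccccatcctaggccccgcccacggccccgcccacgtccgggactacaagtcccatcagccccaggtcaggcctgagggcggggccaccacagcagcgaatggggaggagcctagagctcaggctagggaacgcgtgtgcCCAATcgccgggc

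**Figure D3:**
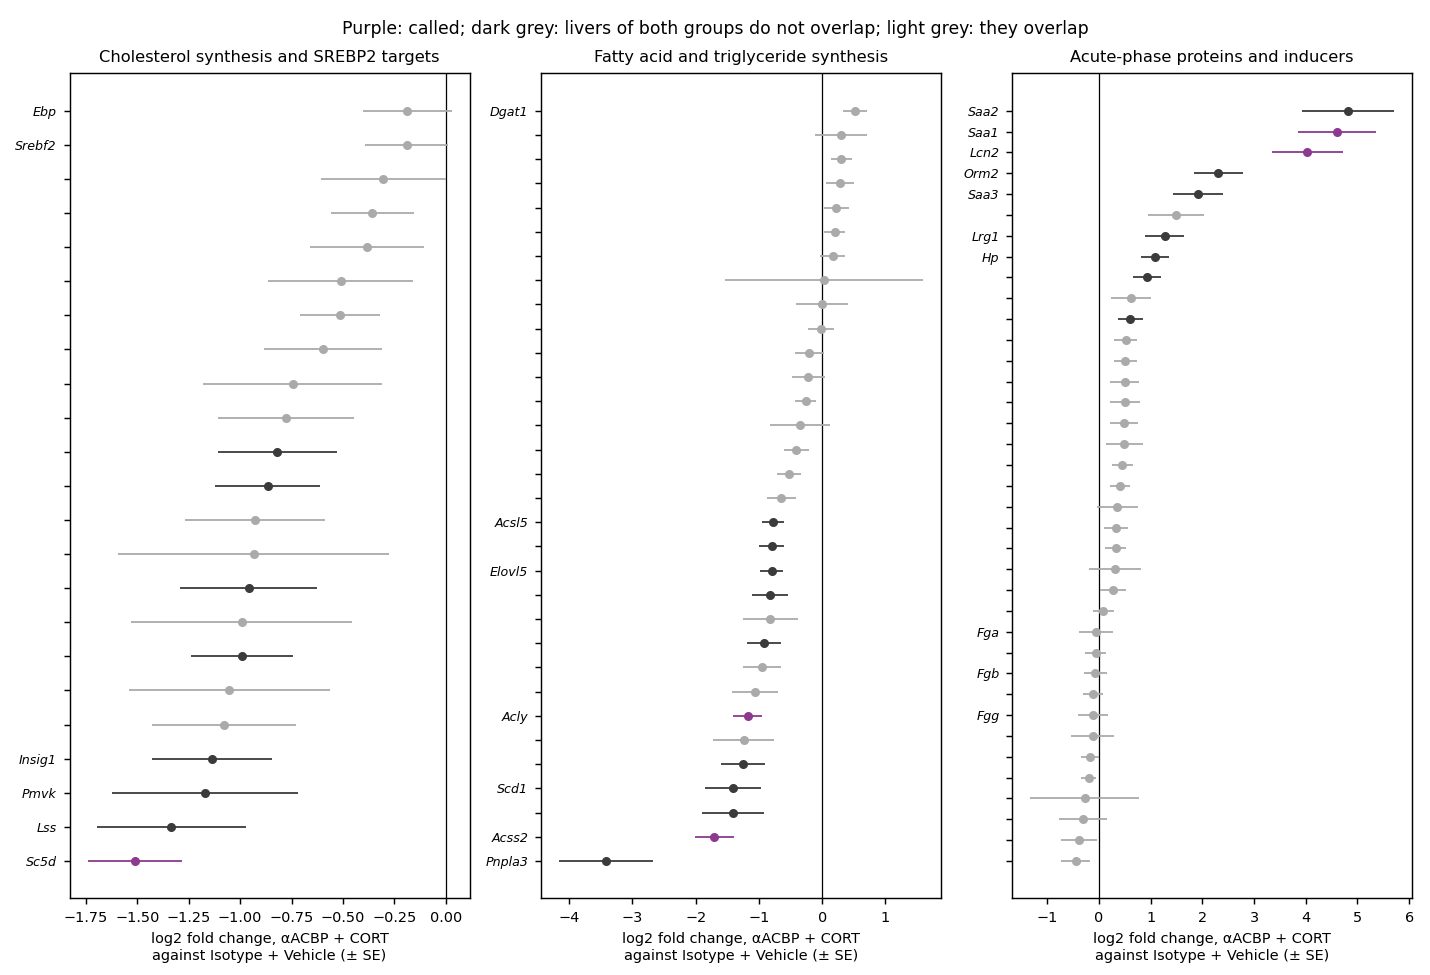
Log2 fold change of αACBP + CORT against Isotype + Vehicle (points, with standard errors as bars) for tested genes of 3 lists: 23 of the 25 of cholesterol synthesis, 32 of fatty acid and triglyceride synthesis and 37 of the acute-phase response. Genes described in the text are labelled. All 23 points of the first list lie below 0, 24 of 32 in the second, and in the third 25 of 37 lie above 0, with Saa2, Saa1 and Lcn2 far from the rest.

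Acute-phase genes lay higher with both treatments, and 2 of them had the largest folds among called genes. Of 37 tested genes 25 had a positive and 12 a negative log2 fold change, with a median of 0.41. Of them 2 were called, both higher (Saa1 and Lcn2), against 0.0373% of all genes called higher. At an unadjusted p of at most 0.05, 14 were higher and 0 were lower, against 7.59% of all genes in either direction. Of the list 9 lay wholly above the controls (1.85% of all genes did). Against the same controls, the median log2 fold change of this list was 0.05 for Isotype + CORT and 0.11 for αACBP + Vehicle. In the fit of the 10 livers 7 of 37 were called higher (0.183% of all genes there), Saa1, Saa2, Saa3, Lcn2, Orm2, Hp and Lrg1. The fibrinogen genes, also of the list, did not pass the test. The log2 fold changes of Fga, Fgb and Fgg were -0.06, -0.07 and -0.12, with standard errors of 0.34, 0.22 and 0.29.

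Saa1 (ENSMUSG00000074115.5, chr7:46389916-46392547, minus strand) encodes serum amyloid A1, a lipoprotein-bound protein that hepatocytes secrete in inflammation. The Saa1 level was 37.5, 36.2, 37.4, 23.6 and 56.5 CPM in the 5 control livers and 990.4, 1108, 467, 1123 and 938 CPM in the 5 αACBP + CORT livers. Replicate 3 was the lowest of the treated livers and far above every control. The mean rose from 38.2 ± 11.7 CPM (SD, n = 5) to 925 ± 268 CPM (SD, n = 5), a log2 fold change of 4.60 ± 0.75 (SE; edgeR's quasi-likelihood test, adjusted p = 0.0320). Saa1 lost the call in 9 of the 10 fits that each left out 1 of these livers (adjusted p 0.0295 to 0.121). In the fit of the 10 livers the adjusted p of Saa1 was 2.54e-08 (edgeR's quasi-likelihood test). Its neighbour Saa2 rose in the fit of the 10 livers (log2 fold change 4.81, adjusted p = 5.04e-06; 4.82 and 0.0537 in the model of 4 groups). The Saa2 level was 22.2, 44.6, 25.6, 19.8 and 53.4 CPM in the 5 control livers and 1130, 817, 492, 1237 and 996 CPM in the 5 αACBP + CORT livers. Of the 100-base words of Saa1, 8.59% also occur in Saa2, so that a part of their pairs could have been counted on either gene or on both.

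Lcn2 (ENSMUSG00000026822.14, chr2:32274645-32278264, minus strand), which encodes the siderophore-binding protein lipocalin 2, is made by hepatocytes in inflammation and by neutrophils. The Lcn2 level was 22.8, 18.2, 16.3, 14.7 and 19.9 CPM in the 5 control livers and 289.5, 489, 274, 233 and 218 CPM in the 5 αACBP + CORT livers. Replicate 2 was the highest, and the lowest treated liver was far above the highest control. The mean rose from 18.4 ± 3.15 CPM (SD, n = 5) to 301 ± 109 CPM (SD, n = 5), a log2 fold change of 4.03 ± 0.69 (SE; edgeR's quasi-likelihood test, adjusted p = 0.0337). Lcn2 lost the call in 9 of the 10 fits that each left out 1 of these livers (adjusted p 0.0298 to 0.144). In the fit of the 10 livers the adjusted p of Lcn2 was 2.03e-08 (edgeR's quasi-likelihood test). Of the 15 tested genes of dendritic cells and neutrophils, Lcn2 was the 1 called, and 12 of them had a negative log2 fold change (median -0.37).

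Orm2, which encodes an orosomucoid, was at 89.8, 49.1, 31.01, 89.1 and 42.9 CPM in controls and at 284, 228, 275, 453 and 255 CPM with both treatments, without overlap (log2 fold change 2.31, adjusted p = 0.0782, and 0.00183 with the 10 livers). Hp, which encodes the haemoglobin-binding haptoglobin, was at 3583, 3406, 3034, 2870 and 3420 CPM and at 7355, 8826, 5741, 8066 and 4657 CPM (log2 fold change 1.09, adjusted p = 0.102, and 0.00497 with the 10 livers). Each treated liver was above each control for both genes. Lrg1 (log2 fold change 1.27, edgeR's quasi-likelihood test, adjusted p = 0.252) and Saa3 (1.92, 0.156) lay likewise apart. Hp, Lrg1 and Saa3 were named by a rule that asked for groups without overlap. Exons of Gm56918 on the other strand cover 64.9% of those of Lrg1.

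Saa1 and Saa2 differed between the group with both treatments and the group with CORT alone. Against Isotype + CORT, both treatments gave a log2 fold change of 4.24 for Saa1 (edgeR's quasi-likelihood test, adjusted p = 0.00949), 5.36 for Saa2 (0.00871), 2.51 for Saa3 (0.0165) and 2.27 for Orm2 (0.0279), in a comparison with 96 calls (0.597%). For Lcn2 this difference was -0.04 (standard error 0.60). Against αACBP + Vehicle, the difference was 0.49 for Saa1 (standard error 0.65, adjusted p = 0.826) and 1.16 for Lcn2 (0.61, 0.457). The livers of αACBP + Vehicle scattered widely for both genes, at 658 ± 602 CPM (SD, n = 5) for Saa1 and 134 ± 114 CPM (SD, n = 5) for Lcn2.

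The promoters of the acute-phase list were searched in the same way, whatever the change of the gene. The C/EBP motif TTGCNNAA (both strands), which C/EBP factors bind at acute-phase genes, was present in 17 of 30 promoters found (56.7%), against 12.2% of all promoters and 10.5% of those of tested genes, and the STAT motif TTCNNNGAA in 8 of 30 (26.7%), against 9.55% and 8.52%. The promoters of the 2 called genes are printed with the C/EBP match in capitals, which starts 182 bases before the RefSeq start in Saa1 and 216 before in Lcn2.
Saa1, chr7:46742931-46743230, minus strand: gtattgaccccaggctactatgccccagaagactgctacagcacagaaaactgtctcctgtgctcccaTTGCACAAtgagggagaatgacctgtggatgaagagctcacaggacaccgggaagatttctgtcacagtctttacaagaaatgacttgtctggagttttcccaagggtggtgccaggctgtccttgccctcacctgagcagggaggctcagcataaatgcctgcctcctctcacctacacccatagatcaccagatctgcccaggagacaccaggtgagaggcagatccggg
Lcn2, chr2:32387690-32387989, minus strand: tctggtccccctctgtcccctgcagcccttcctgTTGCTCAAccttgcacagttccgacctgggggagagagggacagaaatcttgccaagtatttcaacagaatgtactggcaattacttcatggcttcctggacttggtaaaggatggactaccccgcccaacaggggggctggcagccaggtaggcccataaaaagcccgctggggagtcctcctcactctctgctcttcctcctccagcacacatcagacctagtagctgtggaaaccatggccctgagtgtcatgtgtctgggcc

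Slc6a9 (ENSMUSG00000028542.17, chr4:117691703-117732395, plus strand), which encodes the glycine transporter GlyT1, had the smallest p among the higher genes in the model of 4 groups. In the fit of the 10 livers Lcn2, Saa1 and Saa2 had smaller p than Slc6a9. The Slc6a9 level was 17.2, 21.2, 19.3, 22.6 and 24.5 CPM in the 5 control livers and 60.3, 49.2, 42.1, 74.99 and 54.3 CPM in the 5 αACBP + CORT livers. The groups were well apart. The mean rose from 20.97 ± 2.85 CPM (SD, n = 5) to 56.2 ± 12.4 CPM (SD, n = 5), a log2 fold change of 1.42 ± 0.23 (SE; edgeR's quasi-likelihood test, adjusted p = 0.00788). Ccdc24, B4galt2 and Gm17114 have exons opposite 33.8% of its exon bases. Ccdc24 also lay wholly above the controls, which was a condition of its naming (log2 fold change 1.34, edgeR's quasi-likelihood test, adjusted p = 0.0979, and 0.00183 with the 10 livers). Which of the genes the shared pairs came from cannot be told apart without strand.

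Extl1 (ENSMUSG00000028838.11, chr4:134080245-134111161, minus strand) encodes a glycosyltransferase of heparan sulfate synthesis and was on the list of glucocorticoid receptor targets. The Extl1 level was 6.68, 6.61, 3.65, 4.57 and 7.01 CPM in the 5 control livers and 18.2, 28.4, 39.2, 13.5 and 9.89 CPM in the 5 αACBP + CORT livers. All treated livers were above all controls, replicate 5 by the least. The difference was a log2 fold change of 1.94 ± 0.35 (SE; edgeR's quasi-likelihood test, adjusted p = 0.0290). Extl1 lost the call in 8 of the 10 fits that each left out 1 of these livers (adjusted p 0.00139 to 0.0908). Slc30a2 has exons opposite 15.8% of its exon bases. Inhbe (ENSMUSG00000047492.4, chr10:127184726-127190280, minus strand), which encodes the activin E subunit secreted by hepatocytes, was at 10.3, 15.1, 13.4, 8.89 and 17.8 CPM in controls and at 51.4, 56.5, 36, 48.8 and 23.02 CPM with both treatments. The groups did not overlap. The difference was a log2 fold change of 1.72 ± 0.32 (SE; edgeR's quasi-likelihood test, adjusted p = 0.0320). Inhbe lost the call in 9 of the 10 fits that each left out 1 of these livers (adjusted p 0.00432 to 0.108).

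C730036E19Rik (ENSMUSG00000102095.1, chr1:151008685-151019847, plus strand), a long noncoding RNA, was the 1 called gene whose groups overlapped. The C730036E19Rik level was 20.8, 25.1, 28.7, 24.4 and 30.6 CPM in the 5 control livers and 75.2, 70.2, 83.7, 61.5 and 29.4 CPM in the 5 αACBP + CORT livers. Replicate 5 of the treated group lay within the controls and the other 4 well above them. The difference was a log2 fold change of 1.30 ± 0.23 (SE; edgeR's quasi-likelihood test, adjusted p = 0.0257). C730036E19Rik lost the call in 8 of the 10 fits that each left out 1 of these livers (adjusted p 0.000592 to 0.0961). Against αACBP + Vehicle it was 1.30 (adjusted p = 0.0101), in a comparison with 34 calls (0.212%). Of its 100-base words 10.6% also occur in other genes, so that pairs there could have been counted on those genes as well.

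Adcy6 and Col14a1 passed the adjustment with a log2 fold change just under the limit, so that 13 genes (0.0809%) passed it in all. Adcy6, an adenylate cyclase gene, was at 29.9, 40.9, 55.3, 42.5 and 40.5 CPM in controls and at 79.5, 65.02, 76.6, 78.8 and 115 CPM with both treatments (log2 fold change of 0.99 ± 0.20 (SE; edgeR's quasi-likelihood test, adjusted p = 0.0436)). Col14a1, a fibril-associated collagen gene, was at 41.98, 44.7, 41.7, 38.3 and 43.4 CPM and at 21.6, 17.2, 20.1, 17.98 and 28.3 CPM (log2 fold change of -0.997 ± 0.20 (SE; edgeR's quasi-likelihood test, adjusted p = 0.0442)). For both genes the groups did not overlap.

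Glucocorticoid receptor targets had a median close to that of all genes, with a few members that rose. This list, too, was written with earlier results of these data known, so its shares are not independent of the data. Of 34 tested, 20 were higher and 14 lower, with a median log2 fold change of 0.19; 2 were called higher (Extl1 and Lcn2), against 0.0373% of all genes, and 5 were higher and 1 lower at an unadjusted p of at most 0.05. With the fold limit 4 remained, all higher (11.8%, against 1.39% of all genes). In the fit of the 10 livers 3 were called higher, Extl1, Lcn2 and Mfsd2a, against 0.183% of all genes there. The median was 0.15 for Isotype + CORT and 0.43 for αACBP + Vehicle, each against the same controls. Fkbp5, a chaperone gene that glucocorticoids induce in most tissues, was at 33.2, 45.3, 40.8, 26.1 and 51.1 CPM in controls and at 77.2, 55.04, 92.2, 100.2 and 59.2 CPM with both treatments. The lowest treated liver was just above the highest control. The log2 fold change was 0.97 (SE 0.26; edgeR's quasi-likelihood test, adjusted p = 0.167, and 0.0297 in the fit of the 10 livers), under the fold limit in both. Motif shares were not taken for the promoters of this receptor target list. In the acute-phase list, a palindromic glucocorticoid response element was found in 1 of the 30 promoters, against 0.537% of all promoters and 0.4% of those of tested genes. Dbi itself was at 979, 968, 906, 619 and 982 CPM in controls and 855, 858, 588, 839 and 676 CPM with both treatments, with overlapping groups (log2 fold change -0.22, 95% interval -0.65 to 0.20, adjusted p = 0.963).

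Genes that burn or store fatty acids lay slightly higher, without a call in the model of 4 groups. Of 34 genes of fatty acid oxidation and PPARα targets 29 had a positive log2 fold change (median 0.27), with 6 higher and 0 lower at an unadjusted p of at most 0.05, 0 called by edgeR, 1 by DESeq2's Wald test and 1 by voom. The medians against the same controls were 0.68 for Isotype + CORT and -0.25 for αACBP + Vehicle. Vnn1, a pantetheinase gene under PPARα, was at 25.1, 19.7, 27.6, 23.8 and 21.7 CPM in controls and at 104, 54.1, 39.6, 60.3 and 32.4 CPM with both treatments. All treated livers were above all controls (log2 fold change 1.30, adjusted p = 0.219, and 0.0161 with the 10 livers). Of 33 genes of fatty acid uptake, droplets and lipolysis 23 were higher (median 0.19), 6 higher and 1 lower at an unadjusted p of 0.05, 0 called by edgeR and 2 by DESeq2 and by voom each. G0s2, which encodes an inhibitor of lipolysis, was at 65.9, 105, 114, 121 and 98.4 CPM in controls and at 543, 292, 340.4, 238 and 109 CPM with both treatments. The treated group reached from within the control range to far above it, and replicate 5 was the liver that overlapped (log2 fold change 1.59, adjusted p = 0.0547, and 0.0405 with the 10 livers).

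Markers of immune and other nonparenchymal cells were mostly lower, with no call in the model of 4 groups apart from Lcn2. Of 25 tested genes of B and plasma cells 21 were lower (median -0.90), 5 lower and 0 higher at an unadjusted p of 0.05. In the model of 4 groups 0 were called by edgeR, 1 by DESeq2 and 5 by voom. The fit of the 10 livers called 2 lower, Ighm and Igkc (0.237% of all genes there). Their summed level was 107.4 to 145.1 CPM in controls and 31.74 to 102.1 CPM with both treatments. Ighm, the constant region of IgM, was at 49.6, 21.9, 29.7, 37.4 and 27.9 CPM in controls and at 6.85, 4.76, 8.55, 10.3 and 17.6 CPM with both treatments. The groups did not overlap (log2 fold change -1.79, adjusted p = 0.0990, and 0.00882 with the 10 livers). Replicate 5 was the highest of the treated livers.

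Genes of MHC class II, which present antigen, were lower in 9 of 10 (median -0.73), with 1 at an unadjusted p of 0.05 and 0 called by edgeR, DESeq2 or voom. Their summed level was 200.9 to 278.7 CPM in controls and 94.34 to 177.1 CPM with both treatments. H2-Ab1 was at 40.5, 51.1, 37.1, 55.98 and 47.3 CPM in controls and at 31.6, 30.4, 21.2, 32.8 and 26.5 CPM with both treatments, without overlap (log2 fold change -0.70, adjusted p = 0.596, and 0.0434 with the 10 livers, under the fold limit). T and NK cell genes had a median of -0.52 (24 of 27 lower, 0 at an unadjusted p of 0.05, 0 called by edgeR, DESeq2 or voom). The medians of type I interferon-stimulated genes (-0.14), of interferon-γ GTPases (-0.17) and of Kupffer cells and macrophages (-0.13) lay near that of all genes. Against the same controls, Isotype + CORT had medians of -2.46 for MHC class II, -1.47 for T and NK cells, -2.10 for B and plasma cells and -1.37 for type I interferon-stimulated genes. For αACBP + Vehicle these were -0.04, -0.08, 0.06 and -0.02.

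Stellate cell and matrix genes were lower in 23 of 28 (median -0.41; 8 lower and 0 higher at an unadjusted p of 0.05, 0 called by edgeR, 1 by DESeq2 and 4 by voom). Their summed level was 745.1 to 1071 CPM in controls and 721.2 to 798.7 CPM with both treatments, so that these ranges overlapped. The collagen genes Col1a2 and Col3a1 had log2 fold changes of -0.96 and -0.94 (adjusted p = 0.170 and 0.173). Outside the list, Dpt, Gsn and Timp3 are expressed in fibroblasts. They were named for a small p past the fold limit and groups without overlap, so lying wholly below the controls was a condition. They were called in the fit of the 10 livers but not in the model of 4 groups (log2 fold changes -2.03, -1.23 and -1.27, edgeR's quasi-likelihood test, adjusted p = 0.0229, 0.0107 and 0.00195). Sinusoidal endothelial cell genes were lower in 20 of 27 (median -0.21, 4 lower and 1 higher at an unadjusted p of 0.05). Of them 0 were called by edgeR, and 1 was called higher by DESeq2 and by voom each. The fit of the 10 livers called 1 higher, Lhx6 (log2 fold change 1.47, edgeR's quasi-likelihood test, adjusted p = 0.0238, and 0.0990 in the model of 4 groups). Cholangiocyte genes were lower in 13 of 14 (median -0.90, 3 lower at an unadjusted p of 0.05, 0 called by edgeR or DESeq2 and 1 by voom). Several were close to the level of 3 counts, and Epcam was at 2.71, 2.08, 4.11, 3.19 and 4.62 CPM in controls and at 0.403, 1.09, 0.172, 1.66 and 0.648 CPM with both treatments.

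**Figure D4:**
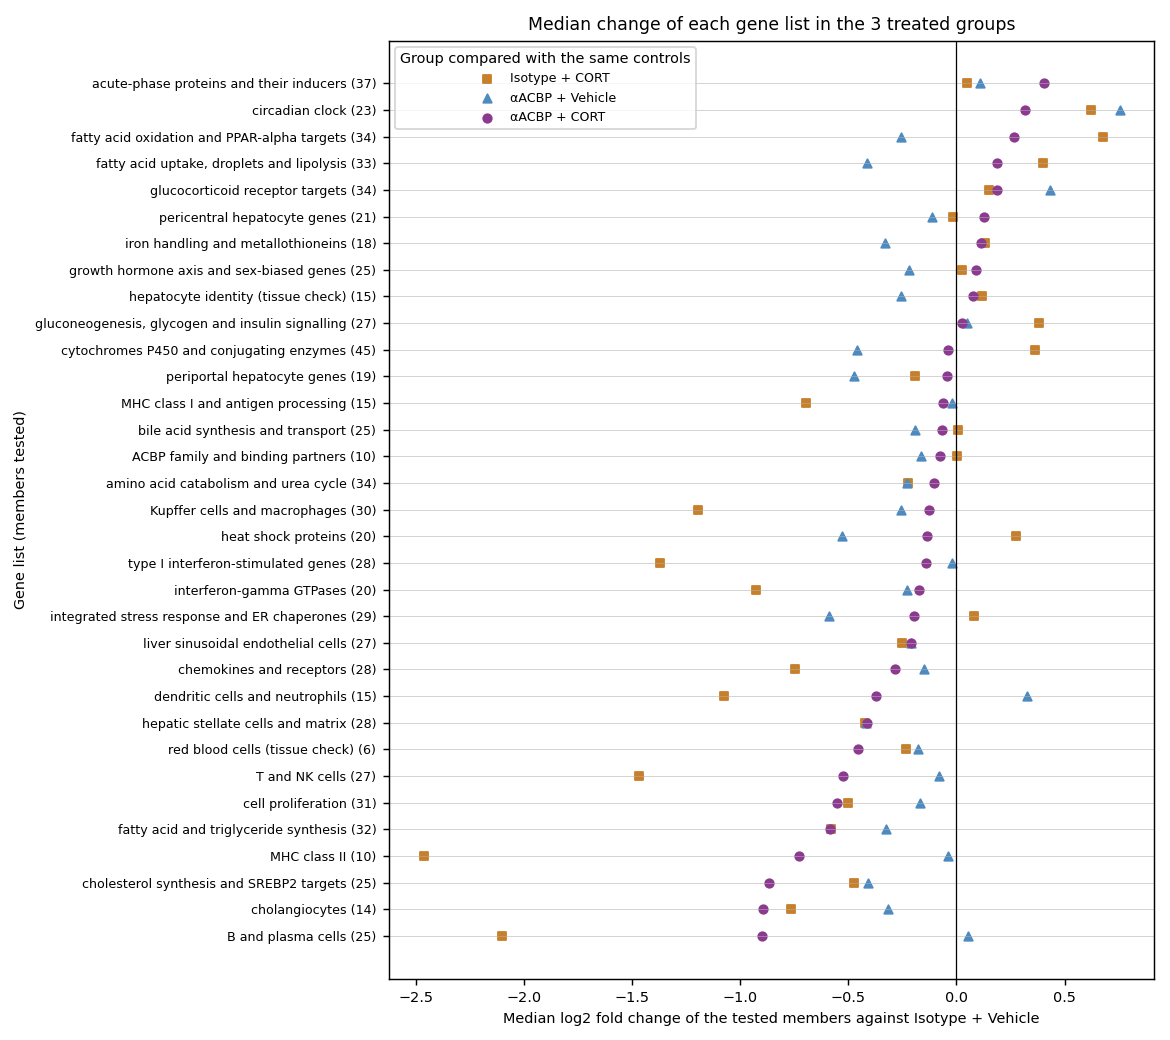
Median log2 fold change of the tested members of each gene list against Isotype + Vehicle, without the pancreatic, muscle and adipocyte lists of the tissue check, for αACBP + CORT (purple circles), Isotype + CORT (orange squares) and αACBP + Vehicle (blue triangles); numbers in parentheses are members tested, and the 3 groups share their controls. For αACBP + CORT, B and plasma cells (-0.90), cholangiocytes (-0.90) and cholesterol synthesis (-0.87) lie lowest of the lists drawn and the acute-phase list (0.41) highest.

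The called genes were also measured with the single treatments, which were not compared with each other. Against the same controls, the log2 fold changes of Sc5d, Acss2 and Acly were -1.41, -1.88 and -0.96 with Isotype + CORT, and -0.78, -0.83 and -0.73 with αACBP + Vehicle. For Slc6a9 they were 1.63 and 1.45, for Extl1 2.71 and 0.97, for Inhbe 2.27 and 0.37, and for C730036E19Rik 1.00 and -0.00. For Lcn2 they were 4.07 and 2.87, and for Saa1 0.36 and 4.10. Tested directly, the αACBP + CORT group differed from Isotype + CORT in 1 of the 11 (Saa1) and from αACBP + Vehicle in 1 (C730036E19Rik), at an adjusted p of 0.05 and the fold limit. For Sc5d, the difference from Isotype + CORT was -0.10 (standard error 0.22) and from αACBP + Vehicle -0.73 (0.23, adjusted p = 0.142).

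For most genes the livers bound the difference without showing one. The 95% interval of the log2 fold change lay within -1 and 1 for 8800 of the 16071 genes (54.8%). It was wider than 1 to either side of the estimate for 5277 genes (32.8%), so that a change at the fold limit could go undetected in these. Such a change could also be missed in genes with narrower intervals, since a call used the adjusted p. For example, Vwce was not called at a log2 fold change of 1.05 (SE 0.24, edgeR's quasi-likelihood test, adjusted p = 0.0782). The median standard error was 0.30.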

How the data were processed

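Total RNA of 20 mouse livers was sequenced in read pairs. Per the study's methods, the authors aligned the pairs to GRCm39 with HISAT2 and made gene counts with HTSeq-count (union mode, a pair on several genes counted on each); the submitters' processing notes name mm10 instead. The gene identifiers carry symbols of an older annotation. Annotation release and strand setting are not given in the sources used here. The authors deposited raw counts of 48440 genes per liver, without normalization. Lines for pairs on no gene, such as no feature (42.3% to 45.2% of pairs), stayed out of library sizes and tests, and 0 columns were left without a liver.

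Counts were analysed in R 4.3.3 with edgeR 4.0.16 (quasi-likelihood test, TMM, robust, filterByExpr), 1 model of 4 groups without covariates and 16 residual degrees of freedom. CPM use TMM-scaled library sizes, and fold changes and 95% intervals are those of the model. DESeq2 1.42.0 and limma 3.58.1 (voom with quality weights) gave alternatives. The programs were tested on simulated counts. Gene positions are of GENCODE M39 (GRCm39), promoters of RefSeq (GRCm38.p6), and no position was moved between builds. Named are all called genes and those past the adjusted p alone. The 10 higher and 10 lower with the smallest unadjusted p at a mean of at least 1 CPM, past the fold limit and without overlap, were added. Of each of 36 lists up to 4 members with the smallest p were named, if the unadjusted p was at most 0.05, besides Dbi and Fkbp5. Further list members in the text, such as Scd1, Dgat1, Mfsd2a, Adipoq and the fibrinogen genes, fall outside this rule. Predicted genes and pseudogenes were left out, and results of a few genes are not reported here, though counts over lists include them. Members and lists were chosen with earlier results of these data known. Same-group livers differed by at least 12.4 times counting noise in chi-square per degree of freedom, so that no library was counted 2 times. The labels number the livers 1 to 5 in each group, but these are different mice. Deviations of same-numbered livers correlated between -0.10 and 0.17. Livers of different numbers were not correlated for reference, so this does not decide whether the numbers mark a shared cage or batch. The limits are an adjusted p of 0.05 and an absolute log2 fold change of 1.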

Additional observations from a re-analysis of the deposited data

Results flagged for a closer look

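Of 194 sets of 5 livers (98 named genes, in each of both groups where the values varied), 14 held a liver set apart from the other 4 by a gap of over 0.71 of the range, which chance gives in about 1 of 20 sets. Replicate 5 of αACBP + CORT was set apart in 4 genes, each time on the high side: 1810008I18Rik was at 52.63 CPM (the others 14.7 to 21.4 CPM), Adcy6 was at 115.2 CPM (the others 65.02 to 79.5 CPM), BC048546 was at 20.21 CPM (the others 9.27 to 11.1 CPM), Col3a1 was at 30.48 CPM (the others 18 to 19.6 CPM). Replicate 1 of that group was set apart in 2 genes: Cyp4a10 was at 803.5 CPM (the others 363 to 463 CPM), Hbb-bt was at 19.88 CPM (the others 7.28 to 10.8 CPM). In replicate 2, Lcn2 was at 488.7 CPM (the others 218 to 289.5 CPM), Cxcl16 was at 10.43 CPM (the others 5.67 to 6.79 CPM). In replicate 3, Saa1 was at 466.6 CPM (the others 938 to 1123 CPM). In replicate 4, Orm2 was at 453 CPM (the others 228 to 284 CPM), Ifih1 was at 9.167 CPM (the others 18.99 to 21.02 CPM). In the Isotype + Vehicle group, replicate 4 was set apart in 2 genes: Sdpr was at 26.67 CPM (the others 16.9 to 18.8 CPM), Dbi was at 619.4 CPM (the others 906 to 982 CPM). In its replicate 1, Igkc was at 34.33 CPM (the others 20.1 to 20.9 CPM).

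The change with CORT differed between antibody and isotype in 5 of the named genes, by edgeR's quasi-likelihood test of the interaction, which passed both limits in 23 of 16071 genes. The log2 interaction (change with CORT under αACBP minus that under isotype) was Slc6a9 -1.66 (adjusted p = 0.0253), Vwce -1.79 (adjusted p = 0.0202), H2-Ab1 2.27 (adjusted p = 0.0449), Mpeg1 1.57 (adjusted p = 0.00655) and Col4a1 1.52 (adjusted p = 0.0480). For Slc6a9, the group means were 20.97 CPM with Isotype + Vehicle, 64.8 with Isotype + CORT, 57.3 with αACBP + Vehicle and 56.2 with αACBP + CORT, so that each treatment alone and both together lay above the controls and near each other. For Vwce, which encodes a von Willebrand factor domain protein, they were 64.7, 162, 185 and 134 CPM in the same order. For H2-Ab1 they were 46.4, 8.02, 34.2 and 28.5 CPM, with Isotype + CORT lowest.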

How the results depend on the processing

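The 11 calls (6 higher, 5 lower) kept their direction under each alternative, and the median of all genes stayed within -0.02 and 0.01. The number of calls was less stable. It was 62 with the 10 livers alone (27 higher, 35 lower) and 62 with DESeq2's Wald test (28 and 34), both with all 11 among them. It was 150 with voom's quality weights (51 and 99) and 223 with unadjusted p (99 and 124). With library sizes that leave out the 20 most abundant genes 8 remained, 2 of them lower, and Acss2 and 1810008I18Rik were among the 3 lost. Leaving out αACBP + Vehicle replicate 5, chosen after seeing the data, gave 22 (10 higher, 12 lower). Each of the 10 livers, left out in turn, moved the count by over 1.5 times, to between 1 and 23 (0 to 9 higher, 1 to 14 lower). It was 1 to 4 when any liver but αACBP + CORT replicate 5 was left out, and 23 without that one. Sc5d was called in every one of these fits. The fits with fewer livers test with fewer samples, and otherwise the cause was not tested. The 223 genes past the unadjusted limits became 690 with voom and 1376 with no filter beyond 1 count, where more genes are tested.

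With the replicate number as a block, 10 genes were called (5 higher, 5 lower), 8 of the 11 among them; Acly, Lcn2 and Saa1 lost the call. Whether the numbers mark a shared cage or batch is not known, since the labels give neither. Depth sets a floor of 0.152 to 0.202 CPM per liver and limits the lists of rare cell types.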

Other observations

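Some genes of other liver functions had livers that differed between both treatments and controls without being called. Their values are log2 fold changes of edgeR's quasi-likelihood test in the model of 4 groups, with the adjusted p of that model and of the fit of the 10 livers. Over the 21 pericentral hepatocyte genes tested, 14 were higher and 7 lower (median 0.13), with 0 called by edgeR, 1 called by DESeq2, and 3 higher and 1 lower at an unadjusted p of 0.05. The 3 higher were Tbx3 (1.09, adjusted p = 0.194, and 0.0531 with the 10 livers), Axin2 (0.93, adjusted p = 0.214, and 0.0836 with the 10 livers) and Rnf43 (0.84, adjusted p = 0.230, and 0.0996 with the 10 livers). Axin2, a target of Wnt signalling, was at 11.2, 14.3, 16.8, 6.70 and 14.5 CPM in controls and 33.2, 18.3, 19.6, 19.99 and 29.8 CPM with both treatments, without overlap.

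Of the endoplasmic reticulum, the gene of the secreted stress protein Manf (-0.95, adjusted p = 0.121, and 0.0258 with the 10 livers) and the chaperone gene Hsp90b1 (-0.62, adjusted p = 0.121, and 0.0281 with the 10 livers) passed the adjustment with the 10 livers, under the fold limit. Hsp90b1 was at 541, 481, 392, 499.8 and 468 CPM in controls and 356, 309, 297, 299.7 and 286 CPM with both treatments, without overlap. The groups overlapped for Manf, with the lowest control liver at 68.1 CPM and the highest treated liver at 75.1 CPM. Exons of Rbm15b on the same strand cover 32.6% of those of Manf, so that pairs there could have been counted on both genes. The log2 fold change of Manf was 0.01 with Isotype + CORT and -0.93 with αACBP + Vehicle, against the same controls. Of 29 genes of the integrated stress response and ER chaperones 22 were lower (median -0.20). The hepatocyte transcription factor gene Creb3l3 (0.73, adjusted p = 0.0990, and 0.0216 with the 10 livers) likewise passed in that fit, and the pyruvate carboxylase gene Pcx (0.62, adjusted p = 0.167, and 0.0531 with the 10 livers) did not. Pcx was at 315, 262, 314, 223 and 266 CPM in controls and 447, 494, 403, 453 and 323 CPM with both treatments. The list of gluconeogenesis, glycogen and insulin signalling had a median of 0.02, with 14 of 27 higher. Clock genes had a median of 0.32 (17 of 23 higher), against 0.62 with Isotype + CORT and 0.75 with αACBP + Vehicle.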
